A study of Mus musculus with 9 samples.

Results

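A set of 7 transcripts linked to the Hippo pathway and to the TGF-beta response was followed across the loss of UTX and the targeting of MLL4 in mouse embryonic stem cells. They are Cyr61 (current symbol Ccn1), Ctgf (current symbol Ccn2), Thbs1, Axl, Ankrd1, Amotl2 and Yap1, and they were found by symbol in the deposited count table, 7 of 33924 genes. All 7 were among the 14772 genes tested, although Ankrd1 reached the filter on low counts only through the wild type libraries and those labelled MLL4 knockdown. All of them except Yap1 were lower in UTX knockout cells than in wild type cells, by 3.15-fold for Amotl2 up to 45.4-fold for Thbs1 in the fit, and Ankrd1 was all but absent there. In the libraries labelled MLL4 knockdown 5 were lower than in wild type, Ctgf did not pass the test, and Yap1 was slightly higher.

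In the Hippo pathway the kinases Lats1 and Lats2 phosphorylate the co-activators YAP and TAZ and keep them out of the nucleus. Unphosphorylated YAP and TAZ bind TEAD transcription factors at DNA and switch on genes of adhesion, cytoskeleton and secreted matrix proteins, among them the matricellular proteins encoded by Cyr61 and Ctgf. TGF-beta acts through SMAD transcription factors and shares several of these targets, and Thbs1 encodes a matricellular protein that can in turn activate latent TGF-beta.

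RNA was sequenced in 9 libraries from mouse embryonic stem cells labelled male, grown without further treatment on gelatin in medium with serum and the cytokine LIF. Of these, 3 came from cells with a knockout of UTX (the gene Kdm6a, an X-linked H3K27 demethylase), whose titles name A6. Another 3 were labelled as a knockdown of MLL4 (the gene Kmt2d, an H3K4 methyltransferase of enhancers), and their titles name JM8A with a further number. The last 3 came from wild type cells named JM8A. The labels do not explain A6 or the further number and do not say how the knockdown was made, so a difference of clone cannot be told apart from the perturbation. Total counts lay between 18570746 and 23874816 per library, with replicate 2 of each group in sequencing lane 1 and replicates 1 and 3 in lane 2. Kdm6a averaged 16.4 ± 3.33 CPM (read counts relative to library depth, scaled here with TMM factors) in UTX knockout cells and 78.9 ± 18.9 CPM in wild type cells (SD, n = 3 each). The fitted difference was -2.27 on the log2 scale (SE 0.20, edgeR adjusted p = 0.000155), with every knockout library below every wild type library. Kmt2d, under its older symbol Mll2, averaged 72.1 ± 1.21 CPM in the libraries labelled MLL4 knockdown and 82.9 ± 37.9 CPM in wild type, and did not pass the test (log2 fold change -0.20, SE 0.27, adjusted p = 0.624). The 95% interval of this difference was -0.79 to 0.39. Against UTX knockout Kmt2d did not pass either (-0.64, SE 0.27, adjusted p = 0.0987). There the groups did not overlap, a pattern 26.9% of tested genes showed in that direction. The transcript level therefore does not establish the knockdown, and the label is used throughout as the name of these libraries. Both perturbed groups also differed from wild type in Y-linked genes. Uty, the Y-linked relative of Kdm6a, averaged 0.828 CPM in UTX knockout, 0.987 CPM in the labelled MLL4 knockdown and 14.1 CPM in wild type. Set against wild type its fitted difference was -4.07 on the log2 scale (SE 0.28, adjusted p = 3.95e-05) in UTX knockout and -3.83 (SE 0.28, adjusted p = 7.79e-06) in the labelled MLL4 knockdown. The Y-linked genes Ddx3y (-3.36 and -3.19, adjusted p = 0.000286 and 7.12e-05) and Eif2s3y (-3.79 and -4.96, adjusted p = 0.00167 and 0.000252) were lower in the same 2 groups, and both were chosen after their values were seen. This difference runs with every comparison with wild type given here and cannot be told apart from the labelled perturbation. The embryonic stem cell genes Pou5f1, Nanog, Sox2, Zfp42 and Esrrb were present in every library, with a summed level of 2757 to 3077 CPM in UTX knockout, 3260 to 3403 CPM in the labelled MLL4 knockdown and 2077 to 2766 CPM in wild type. The sum hides opposite differences from wild type. Zfp42 was lower in UTX knockout (-0.49, adjusted p = 0.0354, a call that ended in 5 of 9 fits with 1 library left out). In the labelled MLL4 knockdown Zfp42 was lower (-0.75, adjusted p = 0.00294), and Nanog (0.67, adjusted p = 0.00256) and Esrrb (0.77, adjusted p = 0.00217) were higher.

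Promoter windows of 300 bases, 250 before and 50 after the RefSeq start on GRCm38.p6, were at hand for 5 of the 7 genes. They are shown because TEAD factors recognise the core GGAATG, read as CATTCC on the other strand, and each of the 5 windows holds it. Capitals mark that core, and each sequence reads 5′ to 3′ along the gene.
Cyr61 (Ccn1), chr3:145649936-145650235, - strand: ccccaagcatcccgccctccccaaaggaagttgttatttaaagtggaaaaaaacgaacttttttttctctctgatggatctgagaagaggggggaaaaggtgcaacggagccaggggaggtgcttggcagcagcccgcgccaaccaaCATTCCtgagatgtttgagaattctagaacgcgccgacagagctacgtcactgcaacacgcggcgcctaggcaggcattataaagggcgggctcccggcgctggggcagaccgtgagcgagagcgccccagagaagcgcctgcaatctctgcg
Amotl2, chr9:102717554-102717853, + strand: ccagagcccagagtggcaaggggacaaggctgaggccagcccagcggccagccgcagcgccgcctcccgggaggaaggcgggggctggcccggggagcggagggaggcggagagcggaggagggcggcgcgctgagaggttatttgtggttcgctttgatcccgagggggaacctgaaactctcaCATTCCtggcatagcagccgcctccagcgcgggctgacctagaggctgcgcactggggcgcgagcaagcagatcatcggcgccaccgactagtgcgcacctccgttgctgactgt
Ankrd1, chr19:36119795-36120094, - strand: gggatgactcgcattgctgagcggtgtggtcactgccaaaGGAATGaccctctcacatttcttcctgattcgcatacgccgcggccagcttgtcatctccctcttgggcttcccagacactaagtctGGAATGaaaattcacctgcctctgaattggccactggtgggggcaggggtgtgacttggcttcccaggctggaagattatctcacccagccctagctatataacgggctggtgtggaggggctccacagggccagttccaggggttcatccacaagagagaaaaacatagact
Axl, chr7:25788684-25788983, - strand: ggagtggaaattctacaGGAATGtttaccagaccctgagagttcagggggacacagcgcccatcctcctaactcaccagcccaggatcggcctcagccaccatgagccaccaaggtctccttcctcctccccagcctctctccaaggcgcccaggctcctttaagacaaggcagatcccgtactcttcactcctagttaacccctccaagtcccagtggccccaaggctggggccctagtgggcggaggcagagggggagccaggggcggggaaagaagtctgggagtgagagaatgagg
Yap1, chr9:8004547-8004846, - strand: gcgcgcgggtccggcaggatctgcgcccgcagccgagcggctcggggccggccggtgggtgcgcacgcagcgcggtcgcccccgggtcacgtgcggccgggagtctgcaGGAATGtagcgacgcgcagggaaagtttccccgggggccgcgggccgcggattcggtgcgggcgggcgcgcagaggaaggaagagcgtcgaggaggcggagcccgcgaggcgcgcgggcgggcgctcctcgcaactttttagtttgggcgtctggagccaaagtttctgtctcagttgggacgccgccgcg
The core was found in 5 of 5 of these windows on either strand, against 14.7% of the 32851 RefSeq windows of the same length. It lay 103 bases before the start in Cyr61, 65 in Amotl2, 233 in Axl and 141 in Yap1, counted to the first base of the match. Ankrd1 alone held 2 copies, at -210 and -123, which 1.36% of all windows do. The second copy overlaps a GTCTG, a core recognised by SMAD proteins, by its first base. GTCTG on either strand was found in Cyr61, Axl, Yap1 and Ankrd1 but not in Amotl2, and 49.6% of all windows hold it. TGANTCA, the core of AP-1 sites, and the CArG box of SRF were in none of the 5 windows, against 7.81% and 1.63% of all windows. Yap1, the gene of the set that was not called in UTX knockout, carries the core as well. Outside the members GGAATG was less frequent in related lists, counted per gene over any of its windows. Of the genes with a window, 3 of 11 in a published YAP/TAZ target signature and 5 of 16 SRF and MRTF cytoskeletal genes held it. Over all 27025 genes with a window the share was 16.6%.

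**Figure D1:**
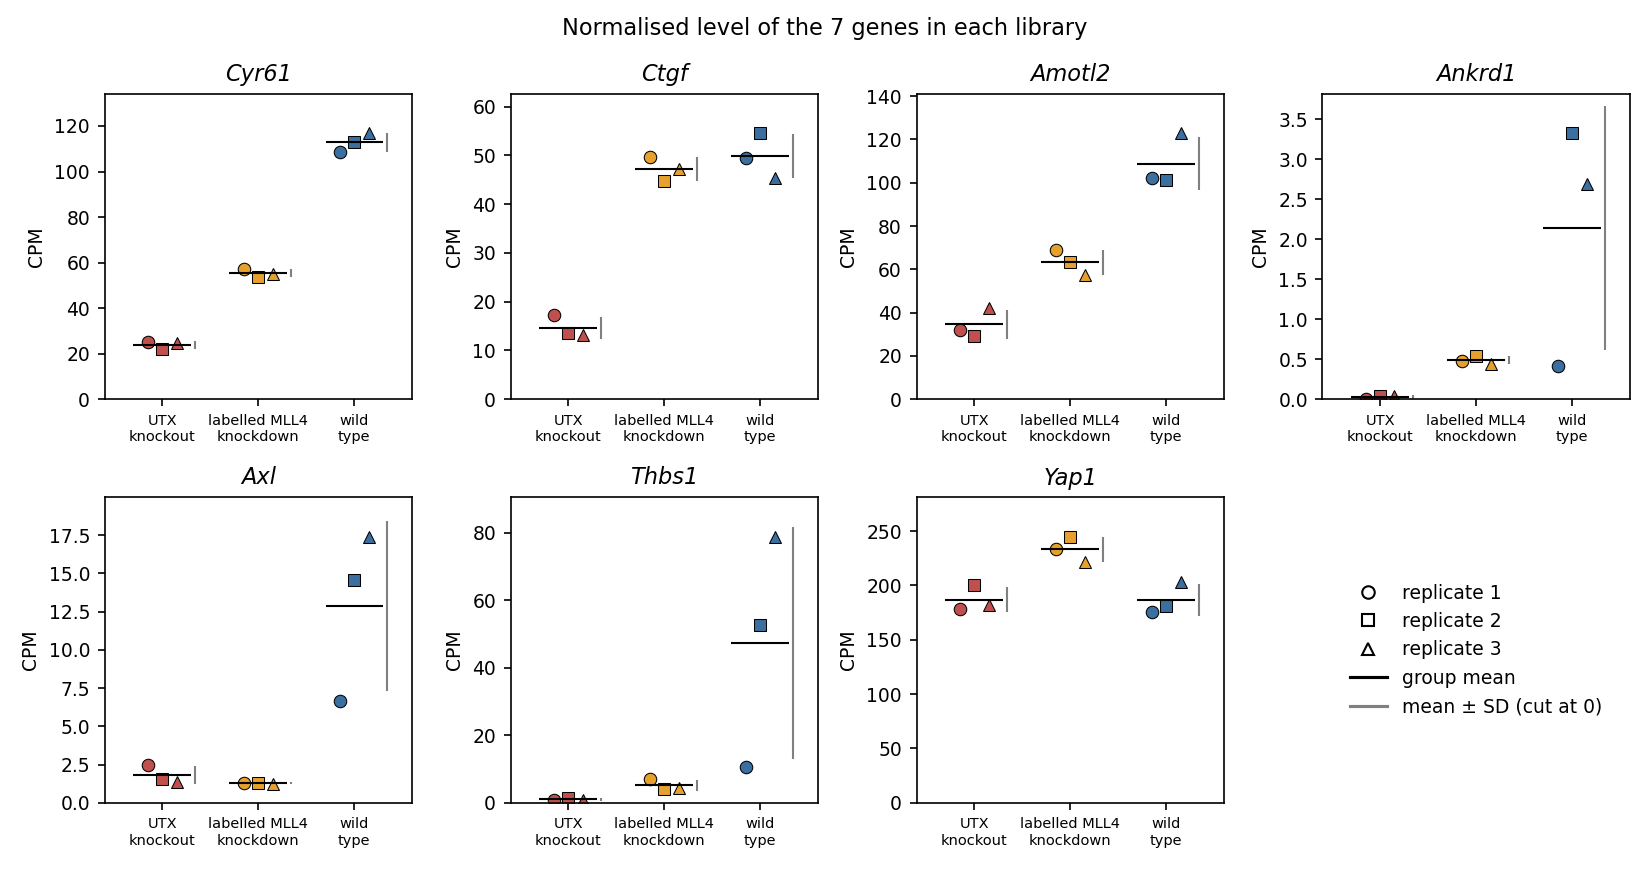
Level of each of the 7 genes in CPM (depth-scaled read counts, linear axis from 0, own scale per gene) in the 9 libraries, with the symbol giving the replicate, black lines the group means and grey lines the mean ± SD. Cyr61, Ctgf and Amotl2 form tight groups, while wild type replicate 1 lies far below wild type replicates 2 and 3 for Ankrd1, Axl and Thbs1.

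The first comparison sets the UTX knockout libraries against the wild type libraries. Of the 7 genes 6 were called lower in UTX knockout and 0 higher, where lower and higher mean a Benjamini-Hochberg adjusted p under 0.05 in edgeR's quasi-likelihood test. Over all tested genes 15.5% were called in either direction, 8.92% lower and 6.55% higher. In these 6 genes every knockout library was below every wild type library, a pattern that 16% of tested genes showed in this direction. The median log2 fold change of the 7 genes was -2.24, beside -0.01 over all tested genes. The 7 genes, like the lists below, were chosen with earlier results of these data known. Their counts and medians beside those of all tested genes, here and below, are therefore a description and not a test of the set. Ankrd1 also passed the filter on low counts only through the groups where it was higher. In all 2285 genes were called in this comparison, and 3446 with the replicate number as a block, which left the calls of the 7 genes as they were. RNA from a whole culture does not tell fewer expressing cells from less RNA per cell. Whether replicates were separate cultures is not given in the labels, and p-values therefore reflect the spread among the deposited libraries, which may be technical.

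Cyr61 encodes a secreted, heparin-binding matricellular protein that signals through integrins. Its level was 25.3, 21.9 and 24.6 CPM in UTX knockout replicates 1 to 3, against 109, 113 and 117 CPM in wild type. The libraries within each group lay close together and the groups were far apart. The log2 fold change was -2.24 (SE 0.11, adjusted p = 1.35e-06), a 4.71-fold lower level. Ctgf, the second CCN protein of the set and a cofactor in matrix deposition, stood at 17.2, 13.6 and 13.1 CPM in UTX knockout and at 49.4, 54.5 and 45.5 CPM in wild type. The groups did not overlap, and the log2 fold change was -1.77 (SE 0.14, adjusted p = 7.79e-05). An antisense gene, Gm15270, overlaps Ctgf, and without a stated strand setting their reads cannot be told apart.

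Thbs1 encodes thrombospondin 1, a large trimeric matricellular protein. It was counted at 0.736, 1.47 and 0.882 CPM in UTX knockout, against 10.8, 52.6 and 78.8 CPM in wild type. The highest knockout library was below the lowest wild type library, which itself lay far below the other wild type libraries. The log2 fold change was -5.50 (SE 0.67, 95% interval -6.97 to -4.04, adjusted p = 0.000899). Leaving out wild type replicate 1 gave -5.96 (adjusted p = 1.17e-06), and leaving out wild type replicate 3 gave -4.93. An antisense gene, Gm29233, overlaps Thbs1.

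Axl encodes a receptor tyrosine kinase of the TAM family, whose ligand is Gas6. It stood at 2.45, 1.56 and 1.35 CPM in UTX knockout and at 6.65, 14.5 and 17.4 CPM in wild type. The groups did not overlap, and the log2 fold change was -2.85 (SE 0.35, adjusted p = 0.000947), or -3.14 without wild type replicate 1. Amotl2 encodes an angiomotin family scaffold that holds YAP at junctions and is itself a YAP target. It had 32.2, 29.1 and 42.3 CPM in UTX knockout and 102, 101 and 123 CPM in wild type. No knockout library reached the lowest wild type library, and the fitted difference was -1.65 on the log2 scale (SE 0.15, adjusted p = 0.000221).

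Ankrd1 encodes an ankyrin repeat protein of muscle and nucleus that is widely used as a readout of YAP activity. It was counted 0, 1 and 1 times in the UTX knockout libraries and 8, 78 and 60 times in wild type. Summed over libraries this was 2 against 146 counts, a ratio of 0.0137 per unit of depth (exact 95% interval 0.00164 to 0.0504, counting error only). The fitted log2 fold change of -5.89 (SE 0.91, adjusted p = 0.00265) depends on the prior count at so few reads. Wild type replicate 1 again held the smallest wild type value, and its 8 counts were above every knockout count.

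Yap1, the co-activator at the centre of the set, stood at 179, 200.1 and 182 CPM in UTX knockout and at 175, 181 and 203 CPM in wild type. The ranges overlap almost entirely. The log2 fold change was 0.00 (SE 0.10, adjusted p = 0.986) with a 95% interval of -0.22 to 0.23. Yap1 is overlapped by the antisense gene Gm20416.

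Leaving out any 1 of the 9 libraries kept all 6 calls in UTX knockout. Within lane 2, with 2 libraries per group, Cyr61 was at -2.17 (adjusted p = 0.00295), Ctgf at -1.64 (adjusted p = 0.0173), Amotl2 at -1.59 (adjusted p = 0.0212) and Yap1 at -0.07 (adjusted p = 0.819). In the same libraries Thbs1 at -5.78 (adjusted p = 0.0565), Axl at -2.66 (adjusted p = 0.0719) and Ankrd1 at -5.72 (adjusted p = 0.0937) no longer passed. Lane 1 holds 1 library per group and gives no test.

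**Figure D2:**
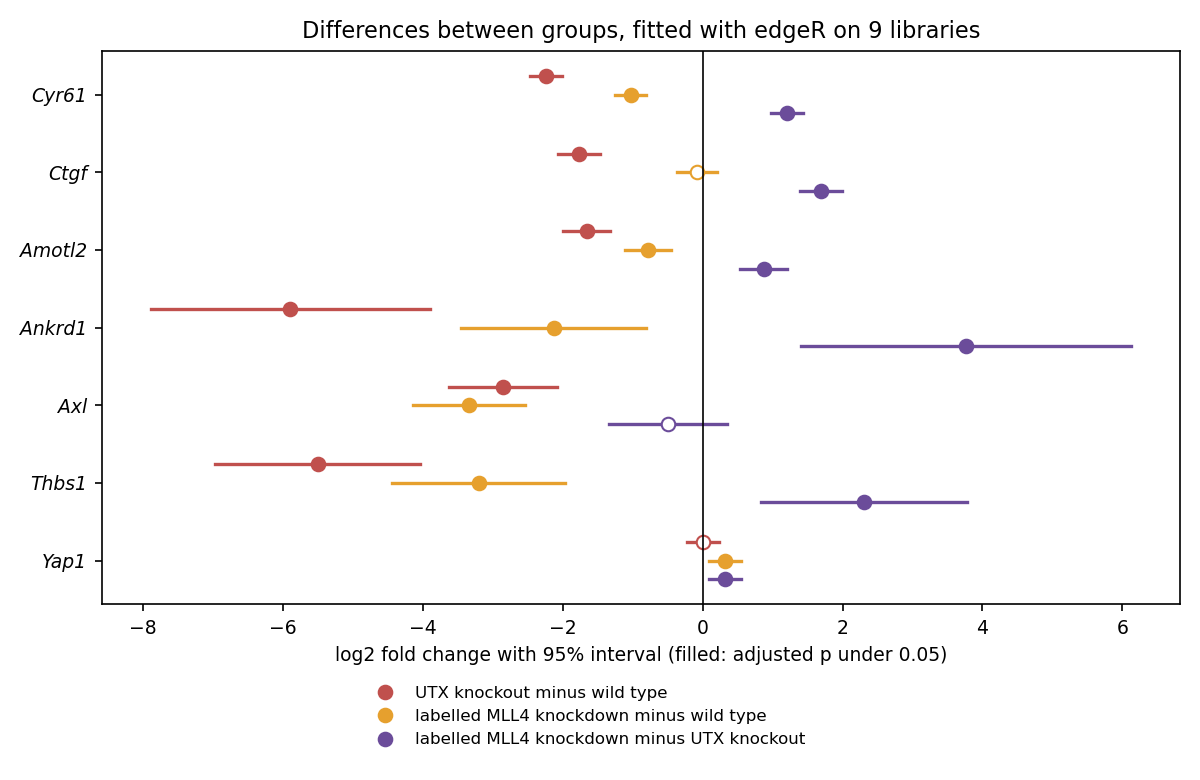
Log2 fold change (x axis) of each gene in UTX knockout minus wild type, labelled MLL4 knockdown minus wild type, and labelled MLL4 knockdown minus UTX knockout, as points with 95% intervals from edgeR on 9 libraries; filled points have an adjusted p under 0.05. Cyr61 and Amotl2 take intermediate values in the labelled MLL4 knockdown, Ctgf stays near 0 there, and Axl lies near -3 in both comparisons with wild type.

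In the libraries labelled MLL4 knockdown 5 of the 7 genes were called lower than in wild type, 1 was called higher and 1 was not called. Of all tested genes 26.6% were called in this comparison, 15.8% lower and 10.8% higher. The groups did not overlap for 4 of the lower genes and for Yap1. Among tested genes 42.9% had non-overlapping groups, 22.4% in the lower and 20.5% in the higher direction. The median log2 fold change of the 7 genes was -1.03, beside -0.02 over all tested genes. The wild type libraries are the same as in the comparison with UTX knockout, so the comparisons are not independent.

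Cyr61 stood at 57.1, 53.6 and 55.1 CPM in the labelled MLL4 knockdown, above every UTX knockout library and below every wild type library. Its log2 fold change was -1.03 (SE 0.10, adjusted p = 6.47e-05), and -1.01 (adjusted p = 0.00664) within lane 2. Amotl2 had 69.1, 63.2 and 57.5 CPM, below every wild type library, and its difference was -0.78 on the log2 scale (SE 0.15, adjusted p = 0.00335), and -0.83 (adjusted p = 0.0332) within lane 2. Ctgf, by contrast, stood at 49.7, 44.8 and 47.3 CPM, inside the wild type range of 45.5 to 54.5 CPM. Its log2 fold change of -0.08 (SE 0.13, adjusted p = 0.705) had a 95% interval of -0.36 to 0.21, and it was 0.03 within lane 2.

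Axl was counted at 1.29, 1.31 and 1.20 CPM in the labelled MLL4 knockdown, the narrowest group for this gene and far below the lowest wild type library. The log2 fold change was -3.34 (SE 0.36, adjusted p = 0.000115), and -3.27 (adjusted p = 0.0169) within lane 2. Thbs1 had 7.16, 4.07 and 4.34 CPM, and its highest library lay just below wild type replicate 1 at 10.8 CPM. The log2 fold change was -3.20 (SE 0.56, adjusted p = 0.00209), -3.65 without wild type replicate 1 and -2.62 without wild type replicate 3. Within lane 2 it was -2.97 and did not pass (adjusted p = 0.0638).

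Ankrd1 was counted 9, 12 and 10 times in the labelled MLL4 knockdown, which overlaps the 8 counts of wild type replicate 1. The sums of 31 and 146 counts give a ratio of 0.218 (exact 95% interval 0.143 to 0.323, counting error only), and the fitted log2 fold change was -2.13 (SE 0.60, adjusted p = 0.0239). This call ended without wild type replicate 2 or 3 and without any of the labelled MLL4 knockdown libraries, with adjusted p between 0.0647 and 0.0874, and within lane 2 (log2 fold change -1.75, adjusted p = 0.228).

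Yap1 stood at 234, 245 and 222 CPM in the labelled MLL4 knockdown, above all wild type and all UTX knockout libraries. Relative to wild type the log2 fold change was 0.32 (SE 0.10, adjusted p = 0.0384), a 1.25-fold higher level. The call was marginal, since leaving out wild type replicate 1 or 2, UTX knockout replicate 2 or any labelled MLL4 knockdown library ended it, with adjusted p between 0.0506 and 0.14, and within lane 2 (0.27, adjusted p = 0.195).

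Set against UTX knockout directly, the labelled MLL4 knockdown had 6 of the 7 genes called higher and 0 lower, where 28.9% of tested genes were called, 13% higher and 16% lower. Non-overlapping groups in the higher direction were seen for these 6 genes and for 25.7% of tested genes. Ctgf was higher by 1.69 on the log2 scale (SE 0.14, adjusted p = 2.62e-05), Cyr61 by 1.21 (SE 0.10, adjusted p = 4.06e-05) and Amotl2 by 0.87 (SE 0.15, adjusted p = 0.00193). These 3 genes also passed within lane 2, at 1.68, 1.17 and 0.76. Ctgf was the member for which the labelled MLL4 knockdown differed from UTX knockout but not detectably from wild type.

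Axl was the member not called between the perturbed groups. Its level was a little lower in each labelled MLL4 knockdown library than in each UTX knockout library, a pattern 26.9% of tested genes showed in that direction, and the log2 fold change was -0.49 (SE 0.39, 95% interval -1.33 to 0.35, adjusted p = 0.366). Ankrd1 had 31 counts in the labelled MLL4 knockdown and 2 in UTX knockout, a ratio of 15.9 (exact 95% interval 4.05 to 137, counting error only; fitted adjusted p = 0.023). Thbs1 was higher by 2.30 (SE 0.67, adjusted p = 0.0249), and Yap1 by 0.32 (SE 0.10, adjusted p = 0.0378). The last 3 calls each depended on single libraries. Thbs1 did not pass without any of the UTX knockout libraries or without labelled MLL4 knockdown replicate 1 (adjusted p between 0.0524 and 0.0799). Ankrd1 did not pass without any UTX knockout library or without labelled MLL4 knockdown replicate 2 (0.0564 to 0.0674). Yap1 did not pass without any library of either group (0.0584 to 0.136). Within lane 2 the adjusted p was 0.11, 0.125 and 0.112 for Thbs1, Ankrd1 and Yap1.

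**Figure D3:**
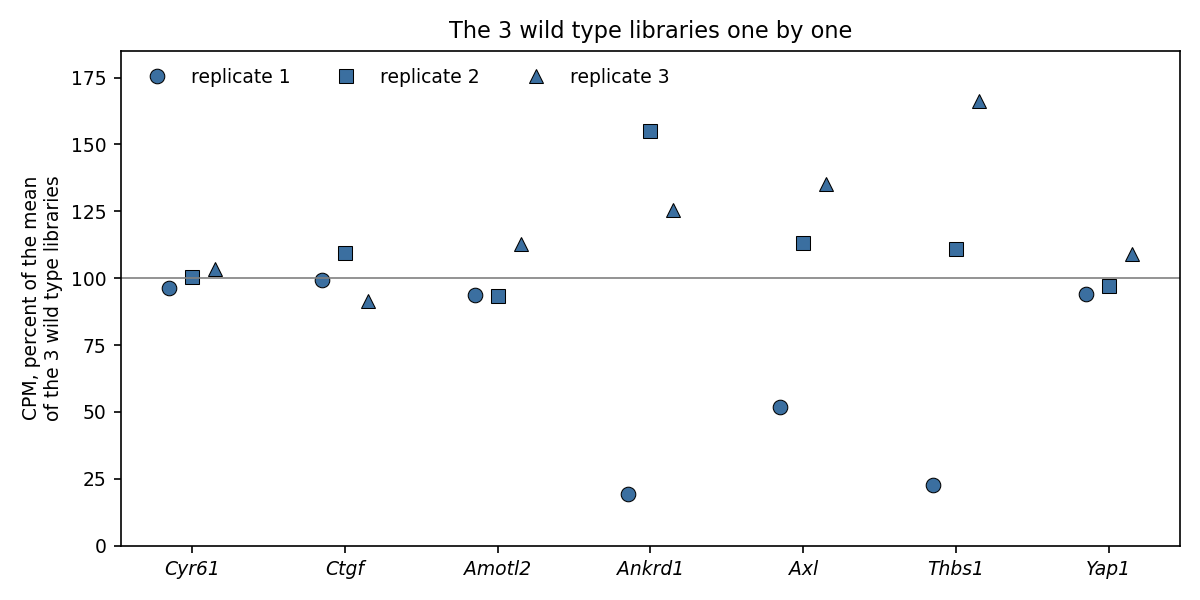
Level of each gene in wild type replicates 1, 2 and 3 as a percent of the mean of the 3 wild type libraries (linear axis from 0). Cyr61, Ctgf, Amotl2 and Yap1 lie between 91.3% and 113%, while replicate 1 is at 19.4% for Ankrd1, 22.7% for Thbs1 and 51.7% for Axl.

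Taken one by one, the wild type libraries fell into an even and an uneven set of genes. The highest library was 1.08 times the lowest for Cyr61, 1.16 times for Yap1, 1.20 times for Ctgf and 1.21 times for Amotl2, below the median of 1.38 over 13206 genes with a wild type mean of at least 1 CPM. It was 8.0 times the lowest for Ankrd1, 7.33 times for Thbs1 and 2.61 times for Axl. Only 0.303%, 0.371% and 5.29% of those genes had a larger range than Ankrd1, Thbs1 and Axl. Replicate 1 was the lowest library for all 3 uneven genes. In UTX knockout Thbs1 and Axl had ratios of 2.00 and 1.82, and in the labelled MLL4 knockdown 1.76 and 1.10, against medians over genes of 1.24 and 1.17.

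Markers of trophectoderm, the outer lineage of the blastocyst, and some fibroblast genes were also lowest in wild type replicate 1. Their summed level over 9 genes was 81.3 to 125 CPM in UTX knockout and 67.1 to 73.6 CPM in the labelled MLL4 knockdown. In wild type it was 131 CPM in replicate 1, 568 CPM in replicate 2 and 497 CPM in replicate 3. Of the 8 tested genes of the list 6 were lower in UTX knockout and 6 were lower in the labelled MLL4 knockdown, and Krt8 and Krt18, keratins of simple epithelia, held most of the sum in wild type replicates 2 and 3. For this and the other marker lists, the shares of all tested genes were 8.92% lower and 6.55% higher in UTX knockout. They were 15.8% and 10.8% in the labelled MLL4 knockdown. Elf5, a defining factor of the lineage, was at 0 in all UTX knockout libraries and in wild type replicate 1, and at most 0.224 CPM elsewhere. Feeder and fibroblast markers (12 genes, 6 tested) summed to 20.8 to 22.4 CPM in UTX knockout, 18.0 to 19.1 CPM in the labelled MLL4 knockdown and 27.3 to 32.8 CPM in wild type. That sum hides opposite differences between the wild type libraries. Col1a1, a fibrillar collagen, had 1.19, 8.35 and 10.2 CPM in wild type replicates 1, 2 and 3, and Col1a2, its partner chain, had 0.623, 6.65 and 5.28 CPM. Col3a1 was counted 0, 13 and 17 times and Postn 0, 6 and 3 times in the same libraries. Thy1 (9.66, 4.01 and 3.85 CPM) and Fbn1 (9.40, 3.15 and 5.06 CPM) were highest in replicate 1. In UTX knockout and the labelled MLL4 knockdown Col1a1 lay between 0.807 and 1.49 CPM and Col1a2 between 0 and 0.620 CPM. Of the 6 tested, 2 were lower in UTX knockout and 4 in the labelled MLL4 knockdown, none was higher, and Lum was at 0 in every library. Endothelial markers (5 genes, 4 tested) summed to 116 to 132 CPM in UTX knockout, 62.4 to 69.0 CPM in the labelled MLL4 knockdown and 112 to 128 CPM in wild type, with 1 called higher and 1 lower in each perturbed group. Pecam1 alone held most of this sum in UTX knockout and wild type. In the labelled MLL4 knockdown it was the gene called lower (-1.79, adjusted p = 1.31e-05). Tek was the gene called higher there (0.99, adjusted p = 0.0202), a call that ended in 4 of 9 fits with 1 library left out. With the replicate block 1 feeder gene was higher and 2 endothelial genes were lower in the labelled MLL4 knockdown. The defining endothelial gene Cdh5 was at 0 in all UTX knockout libraries, and was counted only 1, 13 and 12 times in wild type replicates 1, 2 and 3. Primitive endoderm markers (8 genes, 7 tested) summed to 272 to 487 CPM in UTX knockout, 131 to 210.3 CPM in the labelled MLL4 knockdown and 182 to 496 CPM in wild type. In UTX knockout 2 were called higher and 1 lower, in the labelled MLL4 knockdown 3 higher and 1 lower. Sparc alone held most of this sum in every library. It was the gene called lower in the labelled MLL4 knockdown (-1.24), where Gata6 (1.52), Pdgfra (2.59) and Dab2 (0.88) were called higher. The calls of Sparc and Dab2 there each ended in 5 of 9 fits with 1 library left out. The part of these other cell types in the results on the 7 genes was not tested.

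Levels of different genes were compared per kilobase of merged GENCODE M21 exons (GRCm38), an annotation that is not stated to be the authors'. In UTX knockout Yap1 stood first at 20.2 CPM per kilobase, followed by Cyr61 at 11.9, Amotl2 at 5.49, Ctgf at 5.11, Axl at 0.355, Thbs1 at 0.170 and Ankrd1 at 0.0104. Of these neighbours Amotl2 and Ctgf had overlapping libraries. In the labelled MLL4 knockdown the order was Cyr61 at 27.4, Yap1 at 25.2, Ctgf at 16.5, Amotl2 at 10.1, Thbs1 at 0.854, Axl at 0.252 and Ankrd1 at 0.170, with no neighbours overlapping. In wild type it was Cyr61 at 55.9, Yap1 at 20.2, Ctgf at 17.4, Amotl2 at 17.3, Thbs1 at 7.80, Axl at 2.55 and Ankrd1 at 0.742. There Yap1 and Ctgf, Ctgf and Amotl2, and Thbs1 and Axl had overlapping libraries. Cyr61 was thus the most abundant of the 7 per unit of length in wild type and ranked below Yap1 in UTX knockout.

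The genes lie on chromosomes 2, 3, 7, 9, 10 and 19, with Amotl2 and Yap1 both on chromosome 9. The median log2 fold change of all tested genes on these chromosomes lay between -0.02 and 0.09 in UTX knockout and between -0.04 and 0.04 in the labelled MLL4 knockdown. Chromosome 8 stood apart, with a median of -0.44 in UTX knockout and -0.41 in the labelled MLL4 knockdown, as did chromosome 4 at -0.15 and -0.21. No member lies on either, but some genes named below do.

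**Figure D4:**
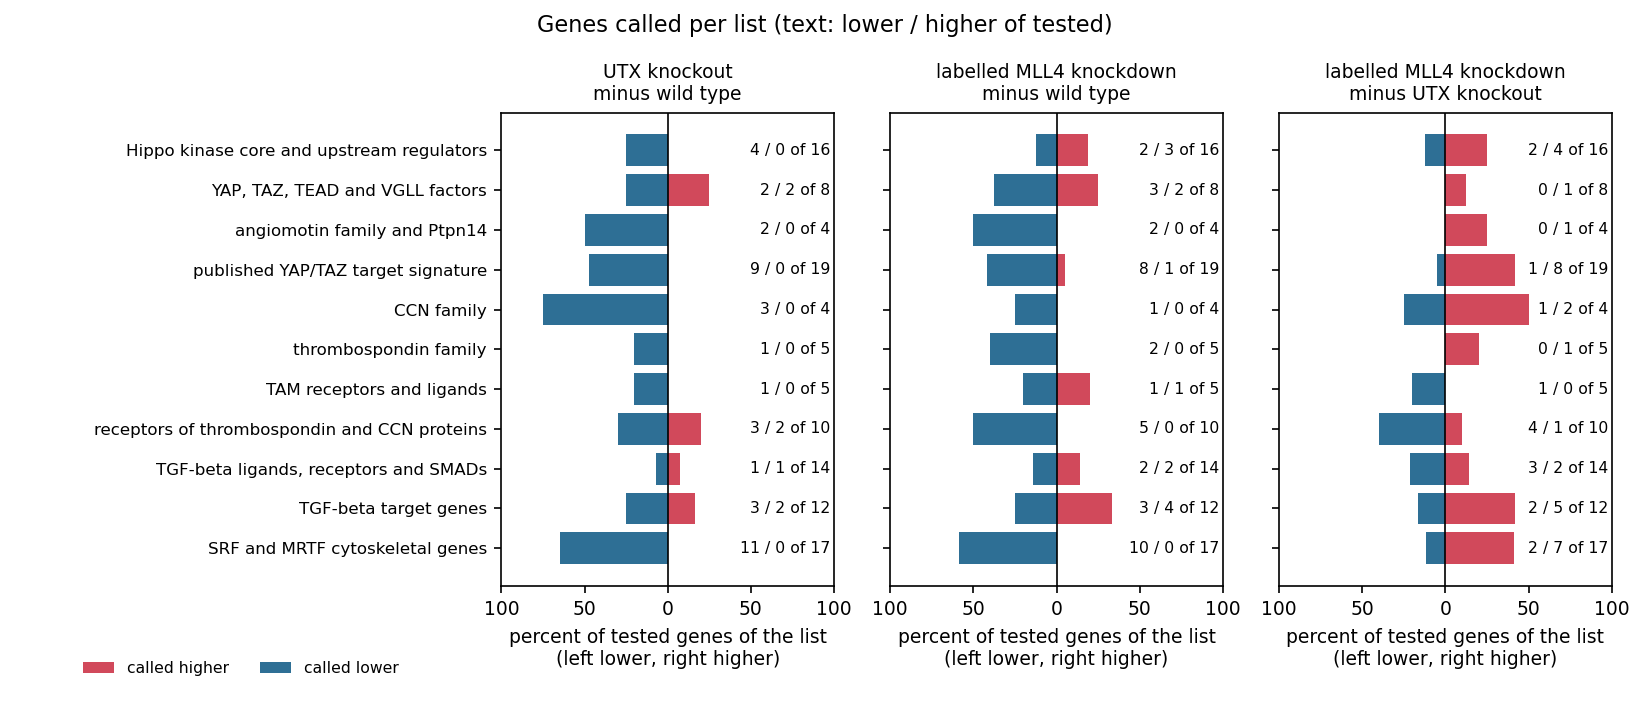
Share of tested genes in each of 11 lists called lower (left, blue) or higher (right, red) in UTX knockout minus wild type, labelled MLL4 knockdown minus wild type and labelled MLL4 knockdown minus UTX knockout (x axis, percent of tested genes). Against wild type 9 and 8 of 19 genes of the published YAP/TAZ signature and 11 and 10 of 17 of the SRF and MRTF list are called lower in UTX knockout and in the labelled MLL4 knockdown, while the TGF-beta target list has calls in both directions. The signature includes members of the set, and outside them 4 of 14 genes are called lower in each of these comparisons. Of all tested genes 8.92% and 15.8% are called lower.

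Calls among the upstream Hippo genes were all lower in UTX knockout and went in both directions in the labelled MLL4 knockdown. Among 16 tested kinases, scaffolds and upstream regulators 4 were lower and 0 higher in UTX knockout, and 2 were lower and 3 higher in the labelled MLL4 knockdown. Of all tested genes 8.92% were called lower and 6.55% higher in UTX knockout, and 15.8% and 10.8% in the labelled MLL4 knockdown. Lats2, the kinase that is itself induced by YAP, stood at 2.65, 2.08 and 1.39 CPM in UTX knockout and at 5.92, 7.97 and 10.4 CPM in wild type (log2 fold change -1.99, SE 0.27, adjusted p = 0.00136). It did not pass in the labelled MLL4 knockdown. Wwc2, a Kibra family scaffold on chromosome 8, was lower in UTX knockout (-0.91, adjusted p = 0.00103) and in the labelled MLL4 knockdown (-0.61, adjusted p = 0.00316). Its family member Wwc1 was lower in the labelled MLL4 knockdown (-0.97, adjusted p = 0.000307), while Taok1 (0.75, adjusted p = 0.00923) and Lats1 (0.72, adjusted p = 0.0106), kinases of the cascade, were higher. With the replicate number as a block 5 genes were higher in the labelled MLL4 knockdown and 1 in UTX knockout. Dchs1, an atypical cadherin (-1.59, adjusted p = 0.0284), was also called in UTX knockout, but not when replicate 1 or 3 of wild type or replicate 2 or 3 of UTX knockout was left out (0.0584 to 0.109). Wwc1 (-0.44, adjusted p = 0.0334) lost its call there in the same fits and without replicate 2 or 3 of the labelled MLL4 knockdown (0.0526 to 0.148). The list count in UTX knockout was 2 when replicate 1 or 3 of wild type or replicate 2 or 3 of UTX knockout was left out, and 1 within lane 2.

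Among 8 tested genes for YAP, TAZ, TEAD and VGLL factors 2 were higher and 2 lower in UTX knockout, and 2 were higher and 3 lower in the labelled MLL4 knockdown. Of the 7 outside the members, 2 were higher and 2 lower in UTX knockout, and 1 was higher and 3 lower in the labelled MLL4 knockdown. Over all tested genes 6.55% were higher and 8.92% lower in UTX knockout, and 10.8% and 15.8% in the labelled MLL4 knockdown. Wwtr1, which encodes TAZ, stood at 71.6, 95.5 and 104 CPM in UTX knockout, 71.5, 84.9 and 83.0 CPM in the labelled MLL4 knockdown and 49.5, 47.8 and 57.6 CPM in wild type. It was higher in UTX knockout (log2 fold change 0.81, SE 0.15, adjusted p = 0.00557) and in the labelled MLL4 knockdown (0.63, SE 0.15, adjusted p = 0.00993), and every library of both groups was above wild type. Tead2 was lower in the labelled MLL4 knockdown (-0.65, adjusted p = 0.00434), and in UTX knockout (-0.49, adjusted p = 0.0271), where leaving out wild type replicate 3, UTX knockout replicate 1 or 2, or labelled MLL4 knockdown replicate 2 ended the call (adjusted p 0.0504 to 0.118). Tead3 was lower in the labelled MLL4 knockdown (-0.81, adjusted p = 0.00915). Tead4 was higher in UTX knockout (0.96, adjusted p = 0.038), and held only when replicate 3 of wild type or replicate 1 of the labelled MLL4 knockdown was the library left out (otherwise 0.0525 to 0.111). Vgll3, a TEAD cofactor, was lower in UTX knockout (-2.22, adjusted p = 0.0128; 0.0616 without UTX knockout replicate 2). It was also lower in the labelled MLL4 knockdown (-1.62, adjusted p = 0.0265), where leaving out replicate 2 or 3 of wild type or any labelled MLL4 knockdown library ended the call (0.0588 to 0.106). Within lane 2 none of the higher calls of this list remained in either comparison, and the lower calls were 0 in UTX knockout and 1 in the labelled MLL4 knockdown.

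The published YAP/TAZ target signature holds 22 genes, of which 19 were tested, 5 of them members of the set. In UTX knockout 9 were lower and 0 higher (median log2 fold change -1.08), and in the labelled MLL4 knockdown 8 were lower and 1 higher (median -0.44). Outside the members 4 of 14 were lower in UTX knockout and 4 lower and 1 higher in the labelled MLL4 knockdown, beside the 8.92% and 15.8% of all tested genes called lower. Nt5e, an ectonucleotidase, was lower in both groups. It stood at 1.18, 0.476 and 0.836 CPM in UTX knockout, 1.08, 0.453 and 0.310 CPM in the labelled MLL4 knockdown and 5.66, 3.96 and 4.48 CPM in wild type. Its log2 fold change was -2.50 (SE 0.41, adjusted p = 0.00349) in UTX knockout and -2.96 (SE 0.43, adjusted p = 0.000696) in the labelled MLL4 knockdown. Igfbp3, a secreted binding protein of insulin-like growth factors, was lower in UTX knockout, with 11.1, 9.86 and 8.59 CPM against 31.4, 23.8 and 21.4 CPM in wild type (log2 fold change -1.37, SE 0.19, adjusted p = 0.00143). Tgfb2 was also called lower there (-2.95, adjusted p = 0.0175), with overlapping groups, and leaving out wild type replicate 3 or replicate 2 or 3 of UTX knockout ended this call (adjusted p 0.0543 to 0.0726).

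In the labelled MLL4 knockdown F3, the tissue factor of blood clotting, had 4.30, 4.07 and 3.94 CPM against 5.45, 20.8 and 19.8 CPM in wild type (log2 fold change -1.91, adjusted p = 0.00515). Myof, a membrane repair protein, had 2.64, 4.16 and 3.81 CPM against 4.31, 17.0 and 27.5 CPM (-2.20, adjusted p = 0.0103). Both genes had the same low wild type replicate 1 as Thbs1, Ankrd1 and Axl. In UTX knockout neither was called with all libraries, and without wild type replicate 1 both were (adjusted p 0.00062 for F3 and 0.00878 for Myof). Without that library 13 of the 19 tested genes were lower in UTX knockout, and within lane 2 the count was 3 in UTX knockout and 5 in the labelled MLL4 knockdown. In the labelled MLL4 knockdown Asap1 was called higher (0.51, adjusted p = 0.0407) and Dock5 lower (-0.47, adjusted p = 0.0457). Of the fits with 1 library left out, Asap1 passed only in those without wild type replicate 3 or replicate 1 of UTX knockout (otherwise 0.0506 to 0.111), and Dock5 only without wild type replicate 1 or 2 (otherwise 0.0601 to 0.14).

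Relatives of the members moved in part. The counts of their lists stand beside 8.92% of all tested genes called lower and 6.55% higher in UTX knockout. In the labelled MLL4 knockdown these shares were 15.8% and 10.8%. Amot, the founding angiomotin, was lower in UTX knockout (10.2, 7.05 and 7.80 CPM against 16.7, 14.3 and 21.1 CPM in wild type, log2 fold change -1.06, adjusted p = 0.00665) and in the labelled MLL4 knockdown (-0.91, adjusted p = 0.00732), while Amotl1 and Ptpn14 were not called. Among 4 tested CCN family genes 3 were lower in UTX knockout and 1 in the labelled MLL4 knockdown, where 3 were lower with the replicate block and 2 when replicate 1 or 2 of wild type was left out. Beside Cyr61 and Ctgf the gene called in UTX knockout was Wisp1, counted 0, 2 and 2 times in UTX knockout and 2, 77 and 94 times in wild type, where replicate 1 was again the low library. Its adjusted p was 0.0117, and 0.0551 without UTX knockout replicate 2. Of 5 tested thrombospondin genes Thbs1 alone was called in UTX knockout, and Comp, on chromosome 8, was called lower with it in the labelled MLL4 knockdown (-1.11, adjusted p = 0.0305). The call of Comp ended without wild type replicate 1 or any labelled MLL4 knockdown library (0.0628 to 0.108). Of 5 TAM receptors and ligands Axl alone was called in UTX knockout. In the labelled MLL4 knockdown Pros1, a ligand of the family, was called higher (0.48, adjusted p = 0.0433), but not without wild type replicate 3 or any labelled MLL4 knockdown library (0.0608 to 0.139). Axl was the only TAM gene called lower there, against 2 with the replicate block or without wild type replicate 3 and 3 without wild type replicate 2.

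Receptors that bind CCN proteins and thrombospondins were called in both directions in UTX knockout and only lower in the labelled MLL4 knockdown. Of 10 tested genes 3 were lower and 2 higher in UTX knockout, and 5 were lower and 0 higher in the labelled MLL4 knockdown. Over all tested genes 8.92% and 15.8% were called lower in these comparisons, and 6.55% and 10.8% higher. Sdc4, a heparan sulphate co-receptor, had 9.68, 14.7 and 11.7 CPM in the labelled MLL4 knockdown, against 107, 137 and 119 CPM in wild type (log2 fold change -3.33, SE 0.21, adjusted p = 5.43e-06). In UTX knockout it had 72.8, 119.9 and 108 CPM and was not called. The integrin gene Itga3 was lower in UTX knockout (-1.29, adjusted p = 0.00386) and in the labelled MLL4 knockdown (-1.35, adjusted p = 0.00122). Itgb1 was lower in UTX knockout (-0.91, adjusted p = 0.00268) and in the labelled MLL4 knockdown (-0.62, adjusted p = 0.00784), and Calr was lower in the labelled MLL4 knockdown (-0.74, adjusted p = 0.00187). Both lie on chromosome 8, where the median gene fell by 0.44 and 0.41 on the log2 scale in those comparisons. Itgb5 was lower (-0.69, adjusted p = 0.00349) and Itgb3 higher (1.13, adjusted p = 0.00489) in UTX knockout. Within lane 2 the calls were 0 in UTX knockout and 3 lower in the labelled MLL4 knockdown.

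Genes of the TGF-beta pathway itself were called at a share near that of all tested genes. Of 14 tested ligands, receptors and SMADs 1 was higher and 1 lower in UTX knockout, and 2 were higher and 2 lower in the labelled MLL4 knockdown, beside the 15.5% and 26.6% of all tested genes called in either direction. Tgfbr3, a co-receptor that presents TGF-beta, was higher in UTX knockout (1.12, adjusted p = 0.00547), and the lower gene was Tgfb2. In the labelled MLL4 knockdown Smad4, the common SMAD, was higher (0.43, adjusted p = 0.00831). Tgfb1 was called lower there (-1.64, adjusted p = 0.0152), but not without wild type replicate 3 or replicate 2 or 3 of the labelled MLL4 knockdown (0.0522 to 0.0592). The latent TGF-beta binding protein gene Ltbp2 was called lower (-1.76, adjusted p = 0.0261), but not without wild type replicate 1 or any labelled MLL4 knockdown library (0.0574 to 0.0946). Its relative Ltbp4 was called higher (0.85, adjusted p = 0.0312), but not without replicate 1 or 2 of wild type or replicate 2 or 3 of the labelled MLL4 knockdown (0.0649 to 0.102). With the replicate block 3 genes of the list were higher in UTX knockout. Within lane 2 none of the calls of this list remained in either comparison.

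The 12 tested TGF-beta target genes, Ctgf and Thbs1 among them, did not move one way. In UTX knockout 3 were lower and 2 higher, and in the labelled MLL4 knockdown 3 were lower and 4 higher. Of the 10 outside the members, 1 was lower and 2 higher in UTX knockout, and 2 were lower and 4 higher in the labelled MLL4 knockdown. Over all tested genes 8.92% were lower and 6.55% higher in UTX knockout, and 15.8% and 10.8% in the labelled MLL4 knockdown. Tgfbi, a matrix protein named for its induction by TGF-beta, had 16.4, 25.2 and 21.7 CPM in UTX knockout, 18.4, 22.6 and 23.7 CPM in the labelled MLL4 knockdown and 6.23, 6.09 and 6.49 CPM in wild type. It was higher by 1.75 (SE 0.18, adjusted p = 0.000359) in UTX knockout and by 1.78 (SE 0.18, adjusted p = 6.81e-05) in the labelled MLL4 knockdown. Smad7, the inhibitory SMAD, was higher in the labelled MLL4 knockdown (1.09, adjusted p = 0.00032), where Timp3, an inhibitor of metalloproteinases, was lower (-1.73, adjusted p = 0.000981). Klf10 was called higher in UTX knockout (0.44, adjusted p = 0.0379), a call that held only when replicate 1 of any group was the library left out (otherwise 0.0545 to 0.126). Within lane 2 the calls in UTX knockout were 1 lower and 1 higher.

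Actin and actin-binding genes driven by SRF and MRTF, a programme that shares targets with YAP and TEAD, were called lower in part. Of 17 tested genes 11 were lower and 0 higher in UTX knockout (median log2 fold change -0.71), and 10 were lower and 0 higher in the labelled MLL4 knockdown (median -0.75), beside the 8.92% and 15.8% of all tested genes called lower. Tpm1, a tropomyosin, had 75.2, 74.8 and 82.1 CPM in UTX knockout, 145, 96.8 and 111 CPM in the labelled MLL4 knockdown and 211, 327 and 310.2 CPM in wild type. Its log2 fold change was -1.87 (adjusted p = 0.000319) in UTX knockout and -1.27 (adjusted p = 0.000649) in the labelled MLL4 knockdown. Acta2, smooth muscle actin, had 0.245, 1.08 and 0.789 CPM in UTX knockout and 3.84, 50.8 and 43.9 CPM in wild type (-5.51, adjusted p = 0.00245). Tagln, an actin-bundling protein, was lower in UTX knockout (-2.62, adjusted p = 0.00779) and in the labelled MLL4 knockdown (-3.32, adjusted p = 0.00127). Cnn1, a calponin, was lower in UTX knockout (-1.60, adjusted p = 0.00268) and in the labelled MLL4 knockdown (-2.56, adjusted p = 8.34e-05). Tpm2, on chromosome 4, was lower in both (-1.08, adjusted p = 0.00175, and -1.07, adjusted p = 0.000634). Within lane 2 the lower calls were 1 in UTX knockout and 5 in the labelled MLL4 knockdown. Without labelled MLL4 knockdown replicate 3 they were 6 in the labelled MLL4 knockdown, where the replicate block gave 2 higher calls and leaving out wild type replicate 1 or 3 gave 1.

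In the direct comparison of the labelled MLL4 knockdown with UTX knockout the YAP/TAZ signature had 8 of 19 genes called higher and 1 lower. Outside the members 4 of 14 were higher and 1 lower, beside 13% of all tested genes called higher and 16% lower. Lats2 (1.77, adjusted p = 0.000984) and Igfbp3 (1.06, adjusted p = 0.00204) were on the higher side. The lower calls were 3 with the replicate block or without wild type replicate 1 and 0 without replicate 2 or 3 of the labelled MLL4 knockdown, and within lane 2 the calls were 5 higher and 0 lower. Sdc4 (-3.06, adjusted p = 1.33e-05) and Mertk, a TAM receptor (-1.18, adjusted p = 0.004), were lower in the labelled MLL4 knockdown.

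For each member the genes with the most similar profile were ranked by Pearson r of log2 CPM over the 9 libraries among 10004 expressed genes. The 9 points form 3 groups and share their depth and lanes, so r is a description of these libraries only. Amotl2 was closest to Cyr61 itself (r = 0.980), followed by the phosphate transporter Slc20a2 (0.974). Ankrd1 was closest to Acta2 (r = 0.986) and then to Car2, a carbonic anhydrase (0.978). Thbs1 was closest to Gpc4, a glypican (r = 0.979), with Pawr and Tpm1 next (0.969 each). Axl was closest to Aoah (r = 0.990) and Rhou (0.982). Ctgf was closest to the co-chaperone Dnaja1 (r = 0.983), and Yap1 to the cohesin subunit Rad21 (0.975).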

How the data were processed

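The authors deposited the raw counts of reads per gene symbol as 1 table, in which each of the 9 libraries has a column that matches its title. Per the submitters' processing notes, the tools included STAR 2.4 and HTSeq 0.6.1 and the genome builds were mm9 and hg19, with no roles stated. The strand setting and annotation release were not given in the sources used here. Libraries were prepared with a TruSeq RNA kit, per the labels' protocols.

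CPM values were computed here with TMM factors. Genes passing filterByExpr by group (minimum count 10) went into edgeR 4.0.16 under R 4.3.3 (glmQLFit and glmQLFTest) on all 9 libraries with a group term, two-sided, with Benjamini-Hochberg adjustment over 14772 genes and a threshold of 0.05. SE and 95% intervals come from the fitted contrast. With 3 libraries a side, exact permutation reaches p = 0.1 at best and was not used. Libraries of the same group differed by more than sampling noise (chi-square divided by its degrees of freedom, 6.89 to 61.6).

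Libraries with the same replicate number departed from their group means together, with correlations over genes of 0.415, 0.168 and 0.381 (UTX knockout and wild type), 0.416, 0.182 and 0.238 (labelled MLL4 knockdown and wild type) and 0.467, 0.181 and 0.308 (labelled MLL4 knockdown and UTX knockout) for replicates 1, 2 and 3. Libraries with different numbers correlated from -0.412 to 0.226, and for labelled MLL4 knockdown replicate 2 the value with UTX knockout replicate 3 (0.226) was above that with its own number (0.181). The numbers were therefore taken as pairs found in the data and used as a block in an alternative.

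Alternatives were RLE size factors, DESeq2 1.42.0, no filter, a stricter filter (CPM of at least 1 in at least 6 libraries), the replicate block, a lane term, lane 2 only, 2 groups only, and leaving out each library. The 7 genes and the lists were chosen with earlier results of these data known. Genes named from a list were the called ones of smallest p, up to 4 per comparison with wild type and passing over the 7, plus genes that lost a call. F3 and Myof in UTX knockout were named after their values were seen. Some genes that met the rule are given by count only or are not reported here. Promoter windows are from RefSeq (GRCm38.p6), gene positions from GENCODE M21 (GRCm38); neither was used for counting.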

Additional observations from a re-analysis of the deposited data

How the results depend on the processing

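No direction of a called gene of the 7 turned under any alternative: of the values recomputed for the 7 genes, 316 stayed on their side of the threshold and 36 lost the call. With all 9 libraries, RLE size factors, DESeq2, the lane term and the replicate block changed no call of the 7 genes in any comparison, and beside the list counts given above with the block it ended no call of a listed gene. Among genes named here Tead3 in UTX knockout (adjusted p = 0.0185) and Dchs1 (0.0127), Tead4 (0.016) and Wisp1 (0.00426) in the labelled MLL4 knockdown passed against wild type with the block and not without it. The block moved the number of genes called in UTX knockout against wild type to 3446 from 2285, and a fit of these 2 groups alone moved it to 1240. In a fit of the labelled MLL4 knockdown and wild type alone Yap1 lost its call (adjusted p = 0.0603). Without the filter on low counts Yap1 lost its call against UTX knockout (adjusted p = 0.0599), and under the stricter filter Ankrd1 was not tested. Nor did Ankrd1 reach the filter in the fit of UTX knockout and wild type alone or in that of the 2 perturbed groups alone. Within lane 2 the genes called were 74 in UTX knockout against wild type, 1341 in the labelled MLL4 knockdown against wild type and 1535 in the labelled MLL4 knockdown against UTX knockout, and 3 of the 7 were called in each. Leaving out 1 library at a time gave 833 to 2854, 2273 to 4108 and 2556 to 5281 genes in these comparisons, lowest without UTX knockout replicate 2, labelled MLL4 knockdown replicate 2 and UTX knockout replicate 2. Of the 7 genes, 6 in every case, 4 to 6 and 3 to 6 were called. The cause of these changes was not tested, beyond the smaller number of libraries. Ankrd1 rests on 2 counts in UTX knockout, so its fold is poorly known, and its counting interval leaves out the spread between libraries.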
